A study of Mus musculus with 16 samples.

Results

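The genes described here are 36 type I interferon response genes, read in mouse liver across both sexes and 2 diets. They were chosen by name: every row of the deposited gene tables whose identifier maps to one of 36 listed symbols. The list was set with earlier results of these data known, so shares set beside those of all genes are a description and not a test. All 36 were found among the 78317 listed genes, and all 36 were among the 14781 genes with enough reads to be tested. The study compared livers of female and male C57BL/6J mice, an inbred laboratory strain labelled as wild type, that arrived at 6 weeks of age and then ate 1 of 2 diets for 10 weeks. FNC are females and MNC males on the normal diet, LabDiet 5053, in which fat gives 4.5% of the calories. FHF are females and MHF males on the high fat diet, D12492 of Research Diets, in which fat gives 60%. Each group has 4 libraries, written here with their replicate number as FHF1 to FHF4 and so on. The 2 diets come from different makers and can differ in more than fat. All 16 libraries were made from poly(A) RNA of powdered whole liver and carry the same batch number, so no batch was available to split them by. The labels do not say that each library is a separate mouse, so the p-values measure the spread between these libraries.

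Type I interferons, the interferon-alpha proteins and interferon-beta, are signals that cells release when their sensors detect viral or misplaced RNA or DNA. They bind the receptor IFNAR1-IFNAR2, whose kinases JAK1 and TYK2 phosphorylate STAT proteins, STAT2 among them. With IRF9 these form the complex ISGF3, which binds the interferon stimulated response element (ISRE) in the promoters of its target genes. The targets include enzymes that degrade or block viral RNA, the sensors and factors of the pathway itself, and proteins such as USP18 that restrain it. In liver both hepatocytes and Kupffer cells, the resident macrophages, can respond. Type III interferon and interferon-gamma induce overlapping sets of genes.

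The promoters of several of these genes share the ISRE, and the stretches that hold it are shown for members called in both sexes (Ifit1, Ifit3, Ifit3b, Isg15 and Rsad2), for Stat2, called in females, and for Oas1a, Oas1g and Bst2, called in neither. RefSeq promoter windows of GRCm38.p6, from 250 bases before to 50 bases after the start, were found for 26 of the 36 genes. The motif searched was GAAA, any 2 bases, then GAAA, on both strands. Capitals mark the motif, with overlapping copies joined, and each sequence runs 5′ to 3′ along the gene's own strand, so a copy on the other strand shows as TTTC, 2 bases, TTTC.
Ifit1, chr19:34640770-34640828, + strand: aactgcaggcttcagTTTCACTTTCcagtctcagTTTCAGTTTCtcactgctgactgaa
Ifit3, chr19:34583358-34583431, + strand: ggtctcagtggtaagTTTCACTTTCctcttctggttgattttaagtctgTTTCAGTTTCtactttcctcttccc
Ifit3b, chr19:34607754-34607827, + strand: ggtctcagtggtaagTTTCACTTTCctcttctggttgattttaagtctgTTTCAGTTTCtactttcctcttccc
Isg15, chr4:156200860-156200911, - strand: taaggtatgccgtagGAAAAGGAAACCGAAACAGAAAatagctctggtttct
Oas1a, chr5:120907515-120907560, - strand: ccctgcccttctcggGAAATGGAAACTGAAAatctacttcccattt
Oas1g, chr5:120887601-120887646, - strand: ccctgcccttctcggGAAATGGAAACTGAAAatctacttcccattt
Rsad2, chr12:26456548-26456587, - strand: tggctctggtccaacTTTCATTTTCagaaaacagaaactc
Stat2, chr10:128270261-128270300, + strand: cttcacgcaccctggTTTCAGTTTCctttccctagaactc
Bst2, chr8:71537572-71537617, - strand: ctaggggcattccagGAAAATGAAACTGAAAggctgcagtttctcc
The Isg15 stretch holds 3 overlapping copies, those of Oas1a, Oas1g and Bst2 hold overlapping copies too, and the Ifit stretches hold separate ones. Ifit3 and Ifit3b are identical over these 74 bases, and Oas1a and Oas1g over these 46. The motif was present in the windows of 12 of the 26 genes (46.15%), against 3.993% of the 27025 genes with any promoter entry. A looser STAT motif, TTCNNNGAA, was present in 4 of 26 (15.38%), against 9.554% of all genes. In Bst2 it overlaps the ISRE. A match describes letters in a window and is not evidence that a factor was bound there. Of the 12 genes with the motif 8 were called higher on the high fat diet in females and 7 in males, and of the 14 without it 13 and 8. Of the 10 genes with no promoter entry, 7 and 5 were called.

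The libraries held 22228115 to 41420589 expected counts. Levels per library are given as CPM, counts scaled to library size after TMM normalization (a scaling that sets the bulk of genes equal between libraries). Levels are compared between genes only as TPM, which also divides by gene length. A gene is called when its p-value in edgeR's quasi-likelihood test, with Benjamini-Hochberg adjustment across the 14781 tested genes, is under 0.05, and changes are log2 fold changes ± their standard error. In bulk tissue, fewer cells of a type and less RNA per cell cannot be told apart. One pair of libraries stood close together: MHF2 and MHF3 differed by a chi-square of 4.07 per gene, against 55.6 to 307.9 for the other pairs of that group and at least 20.8 for every other pair within a group. They differed by more than counting noise and were kept as 2 libraries. With the pair averaged into 1, the calls lost among the genes named here were those of Ifit3b (adjusted p = 0.0796), Samhd1 (0.0577), Gbp6 (0.0723) and Irgm1 (0.0716) by diet in males. Between the sexes Ifit3 on the normal diet (0.0590), Oasl2 (0.0535) and Sp100 (0.0590) on the high fat diet and the Samd9l interaction (0.0795) were lost as well. The highest sums of the adipocyte and pancreatic marker lists were also in MHF libraries, against at most 2.76 and 14.5 CPM in the other groups. In MHF1 to MHF4 the adipocyte sums were 0.966, 10.4, 10.7 and 5.71 CPM, so MHF1 was not high. The pancreatic sums were 16.4, 28.6, 18.3 and 12.3 CPM, so MHF4 was within the range of the other groups. The part of these cells in the results was not tested.

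The interferon response genes were higher on the high fat diet in both sexes. In females 28 of the 36 were called higher and 0 lower, where 5.74% of all tested genes were called higher and 5.76% lower. In males 20 were called higher and 0 lower, against 6.03% and 5.36% of all genes. The median change of the 36 genes was 1.08 in females (a 2.12-fold rise) and 0.76 in males (1.69-fold), while the median over all tested genes was 0.00 and 0.01. Every one of the 36 estimates was above 0 in females and 34 were in males, the exceptions being Bst2 and Stat2. The DESeq2 Wald test called 32 higher and 0 lower in females and 21 higher and 0 lower in males. At an unadjusted p under 0.05 the counts were 35 and 27. Of the 36, 20 were called in both sexes, 8 in females alone, 0 in males alone and 8 in neither.

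**Figure D1:**
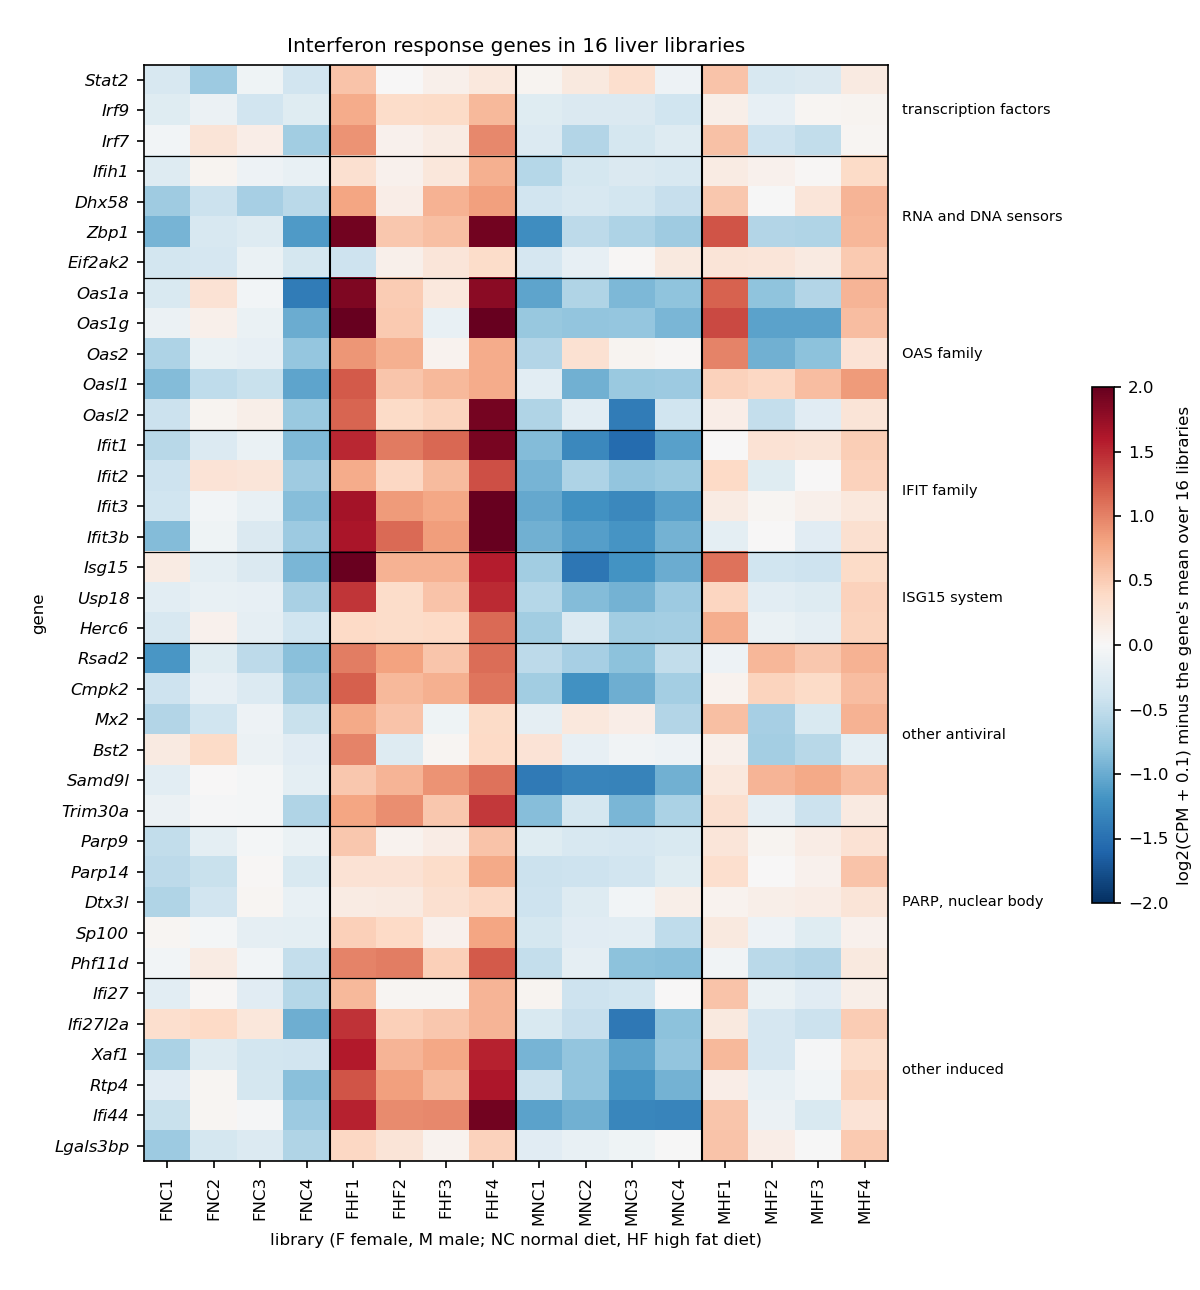
Each row is 1 of the 36 genes, grouped by role, and each column 1 library; colour is log2(CPM + 0.1) minus the gene's mean over the 16 libraries. The FHF libraries are red for most genes, with FHF1 and FHF4 deepest, the MNC libraries are blue, and MHF1 and MHF4 are redder than MHF2 and MHF3 in most rows.

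The single libraries of the diets were often fully apart. In 31 genes all 4 FHF libraries were above all 4 FNC libraries, against 8.71% of all tested genes. In 20 genes all 4 MHF libraries were above all 4 MNC libraries, against 9.32%. The FHF group had the highest mean CPM in 34 of the 36 genes. The exceptions, with MHF highest, were Eif2ak2, which encodes the kinase PKR that halts translation on sensing double-stranded RNA, and Lgals3bp, which encodes a secreted glycoprotein. The lowest mean was that of MNC in 25 genes, FNC in 10 and MHF in 1, which was Bst2.

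The IFIT family rose in both sexes. IFIT proteins bind foreign RNA ends and block their translation. All 4 members were called in females, with a median change of 1.86, and all 4 in males, with a median of 1.17. Ifit1 (ENSMUSG00000034459.9) had 12.6, 15.3, 16.9 and 10.01 CPM in FNC1 to FNC4 and 53.3, 38.2, 41.1 and 69.2 CPM in FHF1 to FHF4. In males it had 10.2, 7.56, 6.31 and 8.69 CPM in MNC and 18.7, 22.6, 22.3 and 26.2 CPM in MHF, again in order of replicate. The diet groups did not overlap in either sex, and the lowest FHF library was above the highest MHF library. Ifit1 rose by 1.88 ± 0.20 in females, or 3.68-fold (adjusted p = 2.7e-05), and by 1.46 ± 0.20 in males, or 2.74-fold (adjusted p = 2.39e-04). It was the member with the smallest p in females.

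Ifit3b and Ifit3, near-identical neighbours on chromosome 19, showed the largest and the fourth largest estimate in females. Ifit3b (ENSMUSG00000062488.10) had 3.97, 6.84, 5.96 and 4.38 CPM in FNC and 22.7, 16.1, 13.1 and 45.9 CPM in FHF. FHF4 stood highest and FHF3 lowest, and every FHF library was above every FNC library. In males Ifit3b had 3.71, 3.34, 3.15 and 3.74 CPM in MNC and 6.35, 7.3, 6.22 and 9.12 CPM in MHF, a smaller gap that also left no overlap. The changes were 2.21 ± 0.32 in females (adjusted p = 4.74e-04) and 1.05 ± 0.32 in males (adjusted p = 0.0470), the latter near the threshold and called in 8 of 24 other settings. Ifit3 had 20.2, 25.7, 24 and 14.8 CPM in FNC, 84.3, 48.1, 45.7 and 127 in FHF, 13, 11.5, 10.8 and 12.6 in MNC and 29.8, 27.5, 28.6 and 30.9 in MHF. FHF1 and FHF4 were far above FHF2 and FHF3, while the 4 MHF libraries lay close together. Reads of the pair can be shared between them by the counting, so their split is uncertain. Their summed counts rose by 1.95 ± 0.28 in females (adjusted p = 0.000513) and by 1.23 ± 0.27 in males (adjusted p = 0.00998). Ifit2 rose by 0.90 ± 0.22 and 0.96 ± 0.23.

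The ISG15 system rose in both sexes as well. ISG15 is a ubiquitin-like protein that is attached to other proteins, USP18 removes it and also shuts off the receptor, and HERC6 is the mouse ligase that attaches it. All 3 genes were called in each sex. Isg15 (ENSMUSG00000035692.8) had 6.86, 5.3, 4.98 and 3.19 CPM in FNC and 24.2, 9.92, 9.95 and 18.4 CPM in FHF. It had 3.71, 2.17, 2.59 and 3.0 CPM in MNC and 13, 4.58, 4.54 and 7.97 CPM in MHF. FHF1 and FHF4 were the highest females and no FNC library reached FHF2, the lowest on the high fat diet. MHF1 was the highest male library, while MHF2 and MHF3 were just above MNC1, the highest MNC library. Isg15 rose by 1.63 ± 0.37 in females (adjusted p = 0.0114) and 1.39 ± 0.38 in males (adjusted p = 0.0294). Usp18 rose by 1.34 ± 0.24 and 0.92 ± 0.24, and Herc6 by 0.81 ± 0.21 and 0.84 ± 0.21. In males the calls of Isg15 and Usp18 were each lost in 6 of 25 other settings.

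**Figure D2:**
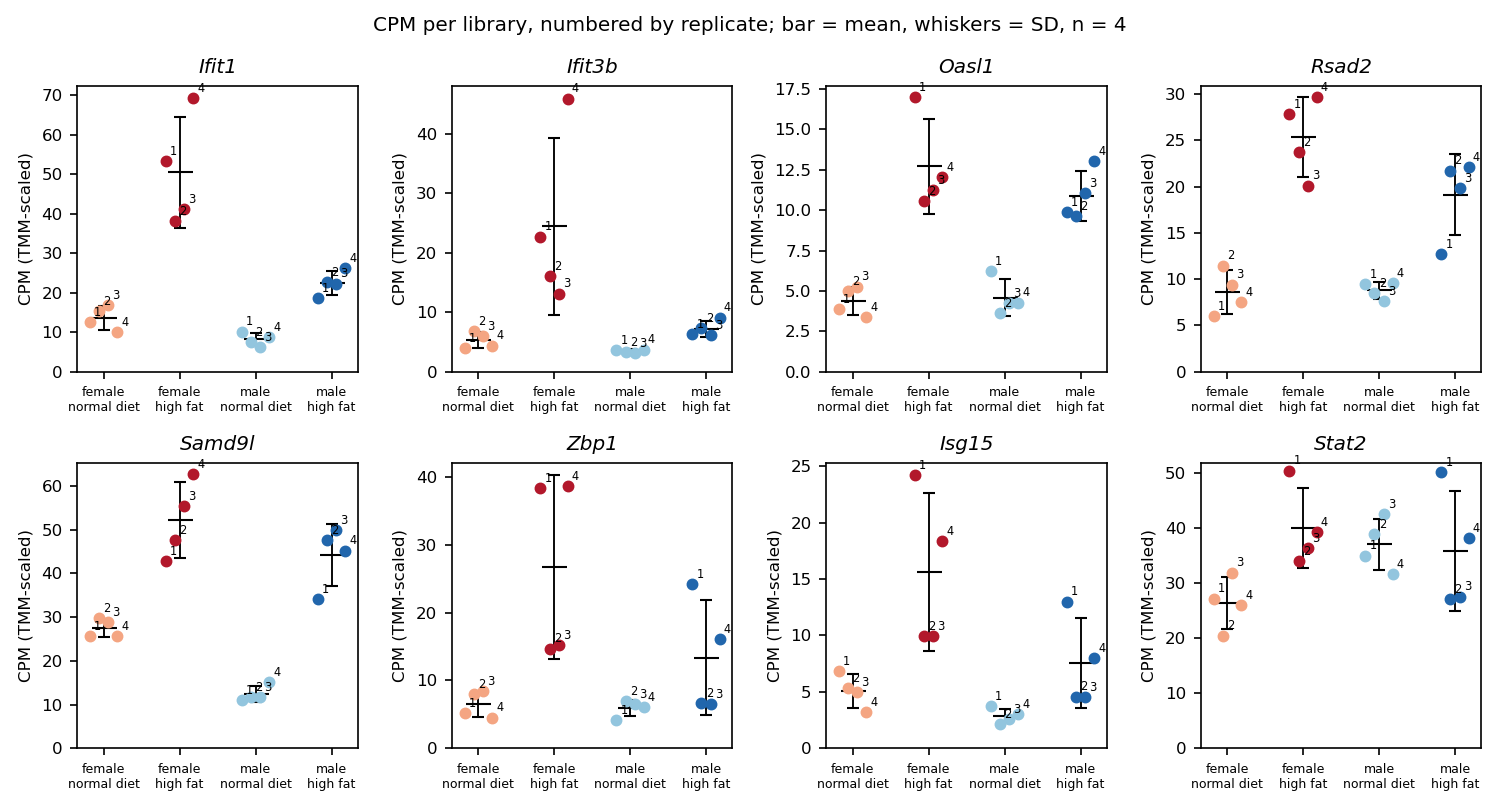
CPM of 8 genes in each library (points, numbered by replicate) with the group mean (bar) and SD (whiskers, n = 4), on axes that start at 0. Ifit1, Ifit3b, Oasl1, Rsad2 and Samd9l separate the diets in both sexes, while MHF2 and MHF3 lie just above the MNC libraries for Isg15, within their range for Zbp1 and below them for Stat2.

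Among the transcription factors, Irf9 moved most clearly. IRF9 is the DNA-binding part of ISGF3. Irf9 (ENSMUSG00000002325.16) had 25.1, 27.3, 22.5 and 25.1 CPM in FNC, 49.3, 37.9, 38.4 and 46.2 in FHF, 25.1, 24.1, 24.2 and 22.5 in MNC and 32.1, 26.4, 30.4 and 30.7 in MHF. All FHF libraries were above all others, and the MHF libraries were above the MNC libraries by a small margin. It rose by 0.78 ± 0.10 in females (adjusted p = 1.43e-04), and its change of 0.32 ± 0.10 in males did not pass (adjusted p = 0.0505). Stat2, the ISGF3 subunit that carries the activation domain, rose by 0.60 ± 0.19 in females (adjusted p = 0.0448), a call lost in 10 of 25 other settings. Its change in males was -0.05 ± 0.19. MNC libraries had 34.9, 38.8, 42.5 and 31.6 CPM against 27.1, 20.4, 31.9 and 25.9 CPM in FNC, and MHF libraries had 50.1, 27, 27.5 and 38.2 CPM, on both sides of the MNC range. Irf7, the factor that amplifies interferon-alpha production, was at 0.63 ± 0.26 in females and 0.36 ± 0.26 in males and was not called. Exons of Irf9 overlap those of Rnf31 on the same strand and exons of Irf7 those of Phrf1 on the other strand in the GRCm38.p6 annotation, so reads of these neighbours may be mixed in.

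Of the nucleic acid sensors, 3 of 4 were called in females and 2 of 4 in males. Dhx58, which encodes LGP2, a helper of the RNA sensors, had 4.67, 5.73, 4.87 and 5.27 CPM in FNC and 13.5, 8.47, 12.6 and 13.8 in FHF. In males it had 5.93, 6.16, 5.96 and 5.58 CPM in MNC and 11.3, 7.71, 9.21 and 12.4 in MHF. No library of one diet crossed into the other in either sex. The rises were 1.23 ± 0.16 (adjusted p = 1.62e-04) and 0.78 ± 0.16 (adjusted p = 0.00510). Ifih1, which encodes the double-stranded RNA sensor MDA5, rose by 0.47 ± 0.13 and 0.55 ± 0.13.

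Zbp1 and Eif2ak2 behaved differently from these. Zbp1, which encodes a sensor of left-handed nucleic acid that can trigger cell death, had 5.19, 8.0, 8.38 and 4.53 CPM in FNC and 38.3, 14.7, 15.2 and 38.7 in FHF. FHF1 and FHF4 were both more than 2 times FHF2 and FHF3, which in turn were above every FNC library. The male values were 4.2, 6.91, 6.48 and 6.06 CPM in MNC and 24.2, 6.65, 6.56 and 16 in MHF, so MHF1 and MHF4 were high and MHF2 and MHF3 lay within the MNC range. The change was 2.04 ± 0.46 in females (adjusted p = 0.0133), the second largest of the 36, and 1.17 ± 0.46 in males, which did not pass (adjusted p = 0.119). Eif2ak2 was at 0.40 ± 0.15 in females and 0.36 ± 0.15 in males and was called in neither. Its lowest value among all high fat diet libraries was in FHF1, at 17.1 CPM. FHF1 held the lowest FHF value in 4 members and the highest in 11.

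The oligoadenylate synthetases make the messenger that activates RNase L, and the OASL proteins are their relatives. In this group 2 of 5 genes were called in females and 1 of 5 in males. Oasl1, which restrains translation of Irf7, had 3.89, 5.0, 5.27 and 3.39 CPM in FNC and 17, 10.6, 11.3 and 12 in FHF. It had 6.22, 3.65, 4.23 and 4.28 CPM in MNC and 9.88, 9.64, 11.1 and 13 in MHF. The diets did not overlap in either sex, and MHF2 and MHF3 were close to MHF1. Oasl1 rose by 1.54 ± 0.19 in females (adjusted p = 9.96e-05) and 1.25 ± 0.19 in males (adjusted p = 5.26e-04). Oasl2 rose by 1.34 ± 0.33 in females and was at 0.53 ± 0.34 in males (adjusted p = 0.333).

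Oas1a, Oas1g and Oas2 had large estimates in females with wide errors, and none was called. Oas1a had 3.97, 6.01, 4.72 and 1.8 CPM in FNC, 18.2, 7.05, 5.68 and 17.5 in FHF, 2.31, 3.2, 2.59 and 2.79 in MNC and 11.3, 2.78, 3.23 and 7.97 in MHF. FHF1, FHF4, MHF1 and MHF4 were the 4 highest libraries, and the remaining high fat diet libraries overlapped or adjoined the normal diet ones. The estimates were 1.56 ± 0.50 in females (adjusted p = 0.0573) and 1.20 ± 0.51 in males (adjusted p = 0.144). Oas1g, whose reads may be shared with Oas1a, was at 1.79 ± 0.57 and 1.23 ± 0.61 (adjusted p = 0.0530 and 0.202). With the counts of the 8 Oas1 genes Oas1a to Oas1h summed, the change was 1.46 ± 0.44 in females, which passed (adjusted p = 0.0483), and 1.04 ± 0.45 in males, which did not (adjusted p = 0.153). Oas2 was at 1.10 ± 0.38 in females (adjusted p = 0.0659) and 0.10 ± 0.38 in males (adjusted p = 0.897).

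Rsad2 and Cmpk2, which lie next to each other in the genome, rose together in both sexes. RSAD2 (viperin) makes a nucleotide that terminates viral RNA chains, and CMPK2 is a mitochondrial nucleotide kinase. Rsad2 (ENSMUSG00000020641.17) had 6.04, 11.5, 9.4 and 7.55 CPM in FNC, 27.8, 23.7, 20.1 and 29.7 in FHF, 9.43, 8.53, 7.65 and 9.61 in MNC and 12.7, 21.7, 19.9 and 22.1 in MHF. Among the MHF libraries MHF1 was the lowest and MHF2 to MHF4 were close together, whereas MHF1 was the highest MHF library for Zbp1, Oas1a and Isg15. It rose by 1.55 ± 0.19 (adjusted p = 1.01e-04) in females and 1.11 ± 0.19 (adjusted p = 0.00137) in males. Cmpk2 had 5.67, 6.74, 6.29 and 4.61 CPM in FNC, 17.6, 11.9, 12.5 and 16.1 in FHF, 4.65, 3.22, 3.8 and 4.71 in MNC and 7.95, 10.4, 10.0 and 11.7 in MHF, with MHF1 again the lowest of its group. It rose by 1.32 ± 0.17 and 1.29 ± 0.17, with adjusted p = 1.16e-04 and 1.67e-04, and its difference between the sexes was 0.03 ± 0.24.

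Samd9l had the larger estimate in males. SAMD9L is an antiviral protein that restrains translation and cell growth. Samd9l (ENSMUSG00000047735.15) had 25.6, 29.7, 28.8 and 25.7 CPM in FNC and 42.8, 47.6, 55.3 and 62.7 CPM in FHF. It had 11.1, 11.8, 11.7 and 15.1 CPM in MNC and 34, 47.6, 49.8 and 45.2 CPM in MHF. The high fat diet libraries of the sexes overlapped, while every MNC library was below every FNC library. Samd9l rose by 0.92 ± 0.14 in females (adjusted p = 3.95e-04) and by 1.83 ± 0.14 in males (adjusted p = 4.12e-07), where it had the smallest p and the largest change of the 36. Of the other antiviral genes, Trim30a, a TRIM family protein with close relatives in the same cluster, rose by 1.14 ± 0.20 and 0.67 ± 0.20. In males its diets overlapped and the call was lost in 12 of 25 other settings, with adjusted p up to 0.110. Mx2, a dynamin-like GTPase, was at 0.83 ± 0.28 and 0.27 ± 0.28, and Bst2 (tetherin, which holds budding virus at the cell surface) at 0.30 ± 0.24 and -0.29 ± 0.24, and neither was called.

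Genes for PARP and nuclear body proteins moved by smaller steps. PARP9 and DTX3L form a complex that modifies histones, PARP14 is a mono-ADP-ribosyltransferase, and SP100 is a scaffold of nuclear bodies. In females all 5 were called, with a median change of 0.56, and in males 2 of 5, with a median of 0.34. Parp9 rose by 0.55 ± 0.12 and 0.49 ± 0.12, and Parp14 by 0.74 ± 0.14 and 0.64 ± 0.14. Dtx3l rose by 0.53 ± 0.13 in females and was at 0.29 ± 0.13 in males. Its exons overlap those of Parp9 on the other strand, and whether the counting used the strand is not given in the sources used here. Sp100 rose by 0.56 ± 0.14 in females and was at 0.31 ± 0.14 in males. Phf11d, a PHD finger gene with near relatives beside it, had 3.82, 4.48, 3.81 and 2.84 CPM in FNC, 8.01, 8.17, 5.57 and 9.46 in FHF, 2.84, 3.51, 2.2 and 2.19 in MNC and 3.79, 2.72, 2.61 and 4.56 in MHF. All FHF libraries were above all other libraries, and the male diets overlapped. It rose by 1.06 ± 0.22 in females (adjusted p = 0.00490) and was at 0.34 ± 0.23 in males (adjusted p = 0.357).

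Of the remaining members 5 of 6 were called in females and 4 of 6 in males. Ifi44, an interferon-induced cytoplasmic protein, had 6.26, 8.77, 8.45 and 5.14 CPM in FNC, 25.1, 16.5, 16.7 and 32.8 in FHF, 4.04, 4.37, 3.41 and 3.36 in MNC and 12.6, 7.91, 6.91 and 10.3 in MHF. Neither sex showed overlap between diets, and the 4 groups fell in the order FHF, MHF, FNC, MNC, with MHF and FNC overlapping. It rose by 1.67 ± 0.24 (adjusted p = 3.33e-04) and 1.31 ± 0.25 (adjusted p = 0.00270). Xaf1, a pro-apoptotic factor, rose by 1.63 ± 0.23 and 1.12 ± 0.23, and Rtp4, a negative regulator of the interferon response, by 1.45 ± 0.23 and 0.92 ± 0.23. Lgals3bp rose by 0.79 ± 0.14 and 0.44 ± 0.14, the male call being lost in 13 of 25 other settings. Ifi27, a mitochondrial protein, rose by 0.62 ± 0.20 in females (adjusted p = 0.0494), a call that also failed in 13 of 25 other settings, and was at 0.29 ± 0.20 in males. Ifi27l2a was at 0.78 ± 0.32 and 0.74 ± 0.33 and was not called.

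**Figure D3:**
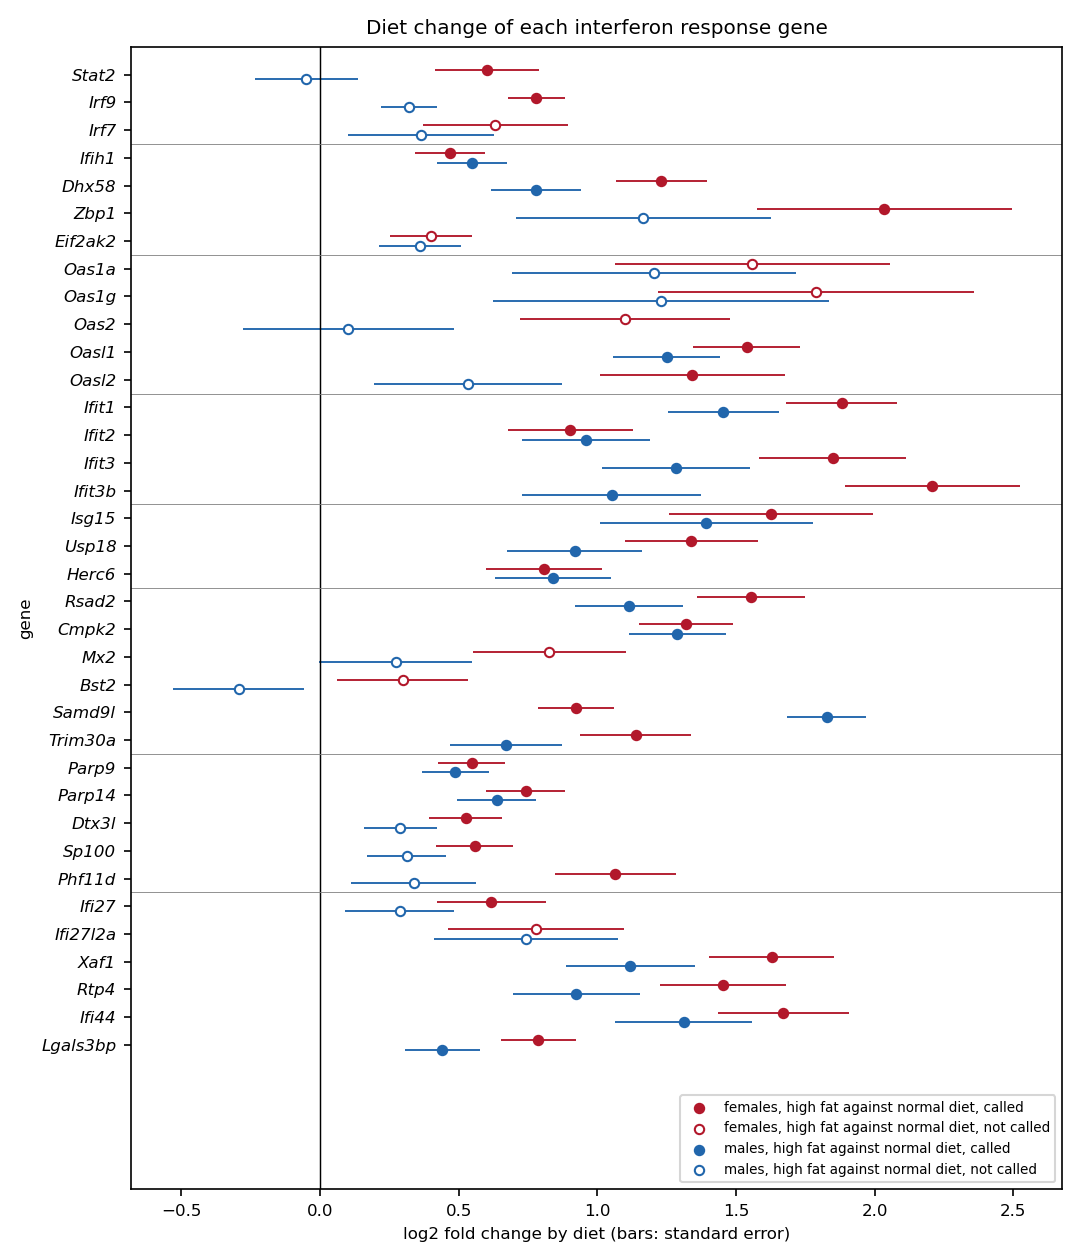
Log2 fold change of each gene by diet (x axis) in females (red) and males (blue) with its standard error; filled points are called and open points are not. All red points and 34 of 36 blue points lie to the right of 0, and Samd9l is the gene whose male point lies farthest beyond its female point.

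Levels compared by TPM spanned a wide range. Bst2 had the highest mean of the 36 in all groups but MHF, with 128 ± 19.5 TPM in FNC, 186 ± 74 in FHF, 121 ± 10.7 in MNC and 104 ± 26.3 in MHF (mean ± SD, n = 4), and its diets overlapped in both sexes. Ifi27 followed with 100.04 ± 15.1 TPM in FNC, 182 ± 49.3 in FHF and 103 ± 14.1 in MNC, and was above Bst2 in MHF with 134 ± 36.5. At the other end was Oas2, with 0.328 ± 0.0854 TPM in FNC and 0.838 ± 0.209 in FHF. Isg15, in between, went from 14.3 ± 3.9 to 51.8 ± 23.6 TPM in females and from 7.99 ± 1.39 to 22.1 ± 11.7 TPM in males.

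The sum over the 36 genes varied between libraries of a group. It was 489.5, 567, 570.2 and 417 TPM in FNC and 1354, 821, 801 and 1385 TPM in FHF, in order of replicate. In males it was 472, 449, 439 and 468 TPM in MNC and 795, 524, 524 and 726 TPM in MHF. The diets did not overlap in either sex, and FHF1 and FHF4, like MHF1 and MHF4, were well above the other pair of their group. The ratio of the diets' mean sums was 2.13 in females and 1.41 in males. Bst2 and Ifi27 weigh most in such a sum, so each gene was also centred on its own mean. The mean centred log2 CPM over the 36 genes was 1.01, 0.49, 0.44 and 1.15 in FHF, -0.38, -0.10, -0.15 and -0.61 in FNC, 0.42, -0.16, -0.13 and 0.40 in MHF and -0.56, -0.55, -0.68 and -0.57 in MNC. The same pairs stood out.

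This division ran through most members but not all. FHF1 and FHF4 were both above FHF2 and FHF3 in 28 of the 36 genes, and MHF1 and MHF4 both above MHF2 and MHF3 in 29. In FNC the pair FNC2 and FNC3 was above the other pair in 22 genes, while in MNC no pair was above in more than 11. FHF4 held the highest FHF value in 25 genes and FHF1 in the other 11. The genes that broke the male pattern include Rsad2, Cmpk2, Samd9l and Ifit1, in which MHF1 was the lowest MHF library. The median coefficient of variation of the 36 genes was 25.7% in FHF and 22.8% in MHF, against 18.2% and 16.2% over all tested genes, and 18.5% in FNC and 14.2% in MNC, against 14.6% and 16.2%. Without FHF4 20 members were called in females, and without MNC3 13 were called in males. Over the 25 settings that left out a library or changed the processing, 20 of the 28 female calls and 13 of the 20 male calls passed every time.

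Markers of other liver cells moved along with some of these differences. The 7 Kupffer cell markers summed to 346, 382, 322 and 264 CPM in FNC and 493, 518, 435 and 632 in FHF, with no overlap. In males the sums were 245, 386, 284 and 247 CPM in MNC and 435, 248, 215 and 332 in MHF, which overlapped, with MHF1 and MHF4 above MHF2 and MHF3. Of the 7, Cd5l (0.82 ± 0.25) and Csf1r (0.60 ± 0.16) were called higher in females, and the male estimates lay between -0.46 and 0.30. The 8 markers of monocytes and recruited macrophages summed to 76.4, 68.3, 65.3 and 105.6 CPM in FHF and 61.6 to 78.6 in FNC. The female diets overlapped, and FHF1 and FHF4 were above FHF2 and FHF3. In males these markers summed to 102, 64.2, 57.2 and 104 CPM in MHF and 50.9 to 66.9 in MNC, again with MHF1 and MHF4 high. Of these 8, 5 were called higher in females, and in males 4 were called higher and Cd9 lower. Of all tested genes 5.74% were called higher in females, and 6.03% higher and 5.36% lower in males.

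Of the 5 hepatocyte markers, Hnf4a was called lower in females (-0.60 ± 0.12), where Apoa1 (0.06 ± 0.22) and Ttr (0.04 ± 0.14) had estimates above 0. In males Hnf4a, Alb and Serpina1a were called lower. Of all tested genes 5.76% were called lower in females and 5.36% in males. The 5 markers summed to 49988, 69411, 70389 and 50487 CPM in MHF and 78436 to 87993 in MNC, and to 94217, 83675, 84637 and 76031 in FHF and 98241 to 111642 in FNC, with no overlap of diets in either sex. MHF1 and MHF4, with the higher interferon gene sums of their group, had its lower hepatocyte sums. In FHF this did not hold, as FHF1 had the highest hepatocyte sum and FHF4 the lowest. Plasmacytoid dendritic cells are known as strong producers of type I interferon, and several of their 7 listed markers were near 0. Siglech had at most 32 counts, Ccr9 at most 17, Klk1 at most 10 and Cox6a2 at most 3 in any library. Ly6d rose by 2.32 ± 0.49 in females and 2.30 ± 0.48 in males. Their list also holds Tcf4, whose level is not given here, and Bst2, a member. Bst2 makes up most of the list's summed level of 53.9 to 123.0 CPM. Summed markers of T cells, NK cells, B cells and neutrophils stayed at or below 16.8 CPM in every library. T cell markers summed to 3.47, 2.48, 1.98 and 4.67 CPM in FHF and 4.65, 2.17, 2.78 and 4.91 in MHF. They were thus higher in FHF1, FHF4, MHF1 and MHF4 than in the other pair of each group. Neutrophil markers summed to 3.08, 1.22, 1.01 and 1.29 CPM in FHF and 4.72, 2.58, 1.75 and 2.70 in MHF. Their order was the same, but FHF4 was only just above FHF2 and MHF4 only just above MHF2. NK cell markers divided this way in FHF but not in MHF, and B cell markers in neither. The part of any of these cells in the interferon gene differences was not tested.

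**Figure D4:**
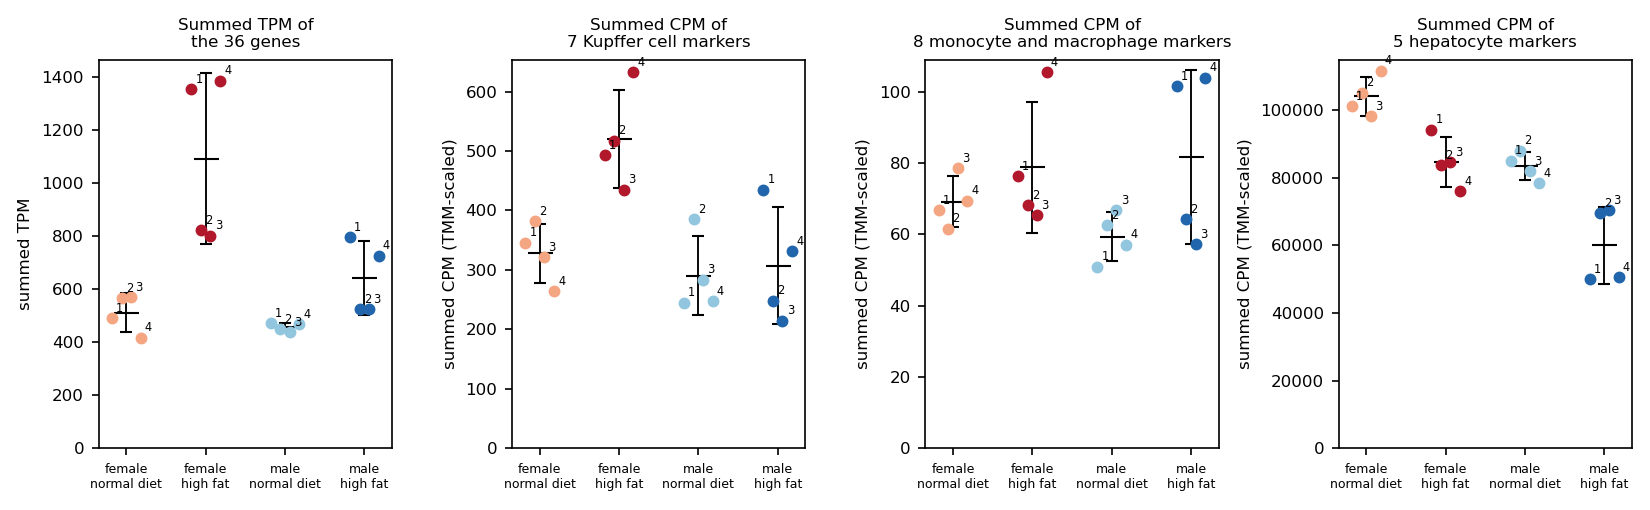
From left to right, summed TPM of the 36 interferon response genes and summed CPM of the Kupffer cell, monocyte and macrophage, and hepatocyte markers, per library (points numbered by replicate) with the group mean and SD (n = 4). FHF1, FHF4, MHF1 and MHF4 stand out in the first panel. MHF1 and MHF4 are also the highest MHF libraries in both macrophage panels and the lowest in the hepatocyte panel. FHF1 and FHF4 are the highest FHF libraries in the monocyte and macrophage panel, while in the Kupffer cell panel FHF2 is above FHF1.

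Whether the diet changed the genes differently in the sexes was tested as an interaction, the female change minus the male change. Only Samd9l was called, with -0.90 ± 0.19 (adjusted p = 0.0381), the smaller female rise. Over all tested genes 0.264% were called with a larger value in females and 0.413% with a smaller one, so 0 and 1 of 36 is not far from the background. The Samd9l call held in 8 of 24 other settings. It was lost on both TPM scales, with MHF2 and MHF3 averaged, and in 13 of the 16 fits that left out a library, where it held without FHF4, without MHF1 and without MNC4, and its adjusted p ranged up to 0.186 on log2(TPM + 1). The direction was the same in all of them.

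Most other interactions had the opposite sign without passing. The estimate was above 0, a larger female change, in 32 of the 36 genes, with a median of 0.39 where the median of all genes was -0.01. At an unadjusted p under 0.05 there were 5: Samd9l, Ifit3b (1.16 ± 0.44), Phf11d (0.73 ± 0.31), Stat2 (0.65 ± 0.26) and Irf9 (0.46 ± 0.14), of which the last had adjusted p = 0.172. The 8 genes called in females alone had adjusted interaction p-values from 0.172 (Irf9) to 0.661 (Ifi27), so a difference between the sexes was not shown for them.

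Between the sexes on the same diet, females were higher where a difference passed. On the normal diet 4 of 36 were higher in females and 0 lower, against 7.03% and 8.68% of all genes. These were Samd9l (1.14 ± 0.14, adjusted p = 3.41e-05), Ifit1 (0.74 ± 0.20, adjusted p = 0.0186), Ifi44 (0.91 ± 0.25, adjusted p = 0.0190) and Ifit3 (0.82 ± 0.27, adjusted p = 0.0472). The Ifit3 call was lost in 17 of 24 other settings, and the summed counts of Ifit3 and Ifit3b did not pass (0.78 ± 0.27, adjusted p = 0.0651). The share of 36 is close to that of all genes, and the count ranged from 1 without FNC2, FNC3 or MNC3 to 7 without FNC4. At an unadjusted p under 0.05 there were 14. The lowest estimates were those of Stat2 (-0.49 ± 0.19) and Oas2 (-0.42 ± 0.38), which were not called.

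On the high fat diet 13 of 36 were higher in females and 0 lower, against 8.84% and 11.6% of all genes. Ifit3b had the largest difference, 1.76 ± 0.31 (adjusted p = 0.00139), and Ifit1 the smallest p, with 1.17 ± 0.19 (adjusted p = 6.4e-04). Ifit3 was at 1.39 ± 0.26, Ifi44 at 1.27 ± 0.23, Phf11d at 1.20 ± 0.22 and Oasl2 at 1.18 ± 0.33. The list also included Irf9 (0.52 ± 0.10), Usp18 (0.92 ± 0.24), Trim30a (0.96 ± 0.20), Xaf1 (1.01 ± 0.22), Rtp4 (1.03 ± 0.22), Cmpk2 (0.54 ± 0.17) and Sp100 (0.47 ± 0.14). Of the 13 calls 9 passed in all 25 other settings, the exceptions being Oasl2 (lost in 7), Sp100 (5), Cmpk2 (3) and Usp18 (1). Rsad2 (0.41 ± 0.19), Oasl1 (0.22 ± 0.19) and Samd9l (0.24 ± 0.14) rose with diet in both sexes and did not differ past the threshold between FHF and MHF. Of the 7 Kupffer cell markers 5 were also called higher in FHF than in MHF, and their part in these differences was not tested. These comparisons share their libraries with the diet comparisons and are not independent of them.

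The interferons themselves were almost absent from the reads. None of the 21 listed ligand genes had enough counts to be tested. Ifnb1, the 13 listed interferon-alpha genes, Ifnab, Ifne, Ifnl2 and Ifnl3 had 0 counts in all 16 libraries, which allows up to 3 counts in a library of this depth. Ifnz reached 0.97 counts and Ifnk 3 counts in a single library. Ifng, the gene of interferon-gamma, had at most 13 counts in an FHF library, 4 in FNC, 3 in MHF and 0 in MNC.

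In the list of receptors, kinases, STAT genes and related factors, 3 of 13 tested genes were called higher in females, against 5.74% of all tested genes. In males 0 were called, where 6.03% of all tested genes were called higher and 5.36% lower. Ifnar1 had 28 ± 3.92 CPM in FNC, 30.2 ± 3.89 in FHF, 33 ± 5.49 in MNC and 32.8 ± 4.85 in MHF (mean ± SD, n = 4), with diet changes of 0.11 ± 0.14 and -0.01 ± 0.14. Ifnar2 was at 0.17 ± 0.09 and -0.21 ± 0.09, Jak1 at 0.10 ± 0.10 and 0.01 ± 0.10 and Tyk2 at 0.33 ± 0.12 and -0.16 ± 0.13, and none of these was called. In this list of 13 tested genes the median change was 0.15 in females and 0.10 in males, and the genes called higher in females include Irf1 and Irf8.

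Irf1, which encodes a factor induced by interferon-gamma as well as type I interferon, was the only gene of these pathway lists called in the interaction. It had 19.5, 19, 17.9 and 14.1 CPM in FNC and 57.1, 28.1, 38.1 and 64.1 CPM in FHF. Male libraries had 15.1, 18.5, 17.4 and 15.5 CPM in MNC and 16.3, 16.6, 15.9 and 14.4 CPM in MHF. Every FHF library was above every other library, and the male diets overlapped. It rose by 1.41 ± 0.19 in females (adjusted p = 2.25e-04), was at -0.07 ± 0.19 in males, and had an interaction of 1.49 ± 0.27 (adjusted p = 0.0142). Irf8, a factor of macrophages and dendritic cells, rose by 0.91 ± 0.26 in females, a call lost in 7 of 25 other settings, and was at 0.00 ± 0.27 in males.

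Sensors and their adaptors had medians of 0.38 in females and 0.28 in males. In females 3 of 19 were called higher, against 5.74% of all tested genes. In males 2 were called higher and 1 lower, against 6.03% and 5.36%, so the male counts are not far from the background. Rigi, which encodes the RNA sensor RIG-I, rose by 0.87 ± 0.12 and 0.75 ± 0.12, and Tlr3, the endosomal double-stranded RNA receptor, by 0.83 ± 0.15 and 1.11 ± 0.15. Unc93b1, which carries such receptors to the endosome, rose by 0.64 ± 0.15 in females. Mavs, the adaptor below RIG-I and MDA5, fell by 0.45 ± 0.09 in males (adjusted p = 0.00519), from 64.2 ± 8.18 to 47 ± 1.92 CPM (mean ± SD, n = 4). The DNA sensing genes Cgas (0.37 ± 0.35 and -0.75 ± 0.36) and Sting1 (0.56 ± 0.25 and 0.35 ± 0.26) were not called.

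Of the 10 tested genes that restrain sensing and signalling 3 were called higher in females, and in males 3 higher and 1 lower. The shares over all tested genes were 5.74% higher in females, and 6.03% higher and 5.36% lower in males. Adar, which edits double-stranded RNA so that it is not sensed, rose by 0.82 ± 0.12 and 0.48 ± 0.12, and Samhd1, which depletes nucleotides, by 0.97 ± 0.17 and 0.63 ± 0.17. Ptpn6, a phosphatase of blood cells, rose by 0.77 ± 0.13 in females, and Nlrx1 by 0.52 ± 0.14 in males. Rnaseh2a, a subunit of the nuclease that removes RNA from DNA, fell by 0.67 ± 0.15 in males (adjusted p = 0.00844).

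Many interferon-induced genes outside the 36 rose too. In females 37 of 60 tested were called higher and 0 lower, with a median of 0.79, and in males 17 higher and 1 lower, with a median of 0.54. Of all tested genes 5.74% were called higher and 5.76% lower in females, and 6.03% and 5.36% in males. Cd274, which encodes the checkpoint ligand PD-L1, had 2.26, 2.12, 1.61 and 2.0 CPM in FNC, 12.4, 6.65, 7.67 and 22.9 in FHF, 1.4, 1.68, 1.17 and 1.57 in MNC and 3.2, 3.39, 4.12 and 4.03 in MHF. Every high fat diet library was above every normal diet library of its sex, and FHF4 was the highest. It rose by 2.63 ± 0.30 in females and 1.33 ± 0.31 in males. Trim30d, a relative of Trim30a, rose by 1.47 ± 0.14 and 0.91 ± 0.14, Trim34a by 1.14 ± 0.13 and 0.80 ± 0.13, and Ddx60, a helicase, by 1.27 ± 0.21 and 1.35 ± 0.21. Trim12c rose by 1.12 ± 0.15 and 0.89 ± 0.15. The 1 lower gene in males was Phf11c (-1.06 ± 0.22), a neighbour of Phf11d, named after its value was seen.

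Genes that lean on interferon-gamma, the GTPases of the IRG and GBP families and antigen processing genes, rose in females. Their male estimates were smaller and mostly not called. In females 18 of 20 tested were called higher, with a median of 1.69, against 5.74% of all tested genes. In males 2 were called higher, Gbp6 and Irgm1, with a median of 0.74. That count is not far from the 6.03% of all tested genes. Gbp6 rose by 2.40 ± 0.33 and 1.20 ± 0.33, Irgm1 by 1.40 ± 0.22 and 0.74 ± 0.22, and Irgm2 by 1.89 ± 0.29 in females. The male calls of Gbp6 and Irgm1 were lost in 10 and 14 of 25 other settings. All 20 were called higher in FHF than in MHF, where 8.84% of all genes were. In the interaction 0 of the 20 passed with edgeR, 10 at an unadjusted p under 0.05, and DESeq2 called 2 genes over all the pathway lists together. Without FHF4 the calls over all pathway lists in females fell from 64 to 39 of 122.

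**Figure D5:**
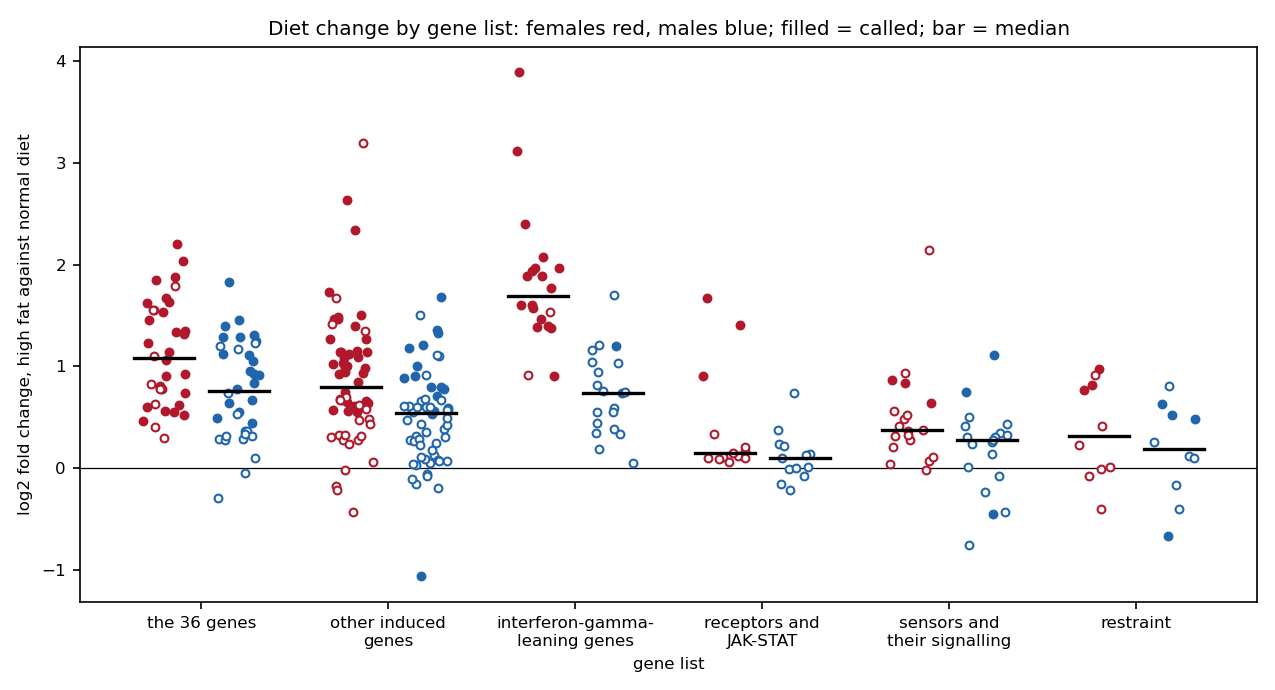
Log2 fold change by diet for each tested gene of the 36 and of 5 further lists, females in red and males in blue, filled when called, with the median as a bar; horizontal scatter within a column carries no meaning. The 36 genes sit at medians of 1.08 and 0.76, the interferon-gamma-leaning genes at 1.69 and 0.74, and the receptor and JAK-STAT genes at 0.15 and 0.10, with Irf1 and Irf8 among the filled points in females.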

How the data were processed

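RNA of 16 liver libraries was sequenced, and the authors deposited RSEM expected counts and TPM values per gene. Per the submitters' processing notes STAR, RSEM and the build GRCm39 were used, with versions not given in the sources used here. RSEM shares reads between similar genes by likelihood, and 4.89% of the deposited expected counts were not whole, so counts were rounded. Deposited TPM values divide by gene length and sum to a fixed total. Genes without a symbol held 0.617% to 1.65% of a library's counts and stayed in the fit.

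Genes were kept by filterByExpr, scaled by TMM and tested with edgeR 4.0.16 (glmQLFit robust, glmQLFTest, R 4.3.3), 1 mean per group and 5 contrasts, two-sided, with Benjamini-Hochberg adjustment. The standard error is the log2 fold change over the square root of F. Alternatives used limma 3.58.1 on log2(TPM + 1) and log2(TPM + 0.1), and DESeq2 1.42.0. The script was tested on simulated data.

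The members, lists and roles were chosen with earlier results of these data known. Every member is named. Values of every library are given for members with the 6 smallest p or the 3 largest changes among those called in a contrast, and for some members whose libraries divide. Of each pathway list up to 3 called genes with the smallest p per diet contrast are named, with Ifnar1, Ifnar2, Ifnb1 and genes called in the interaction; others are named after their values were seen, and 1 gene of the rule is not reported here. The symbols Mnda and Pyhin1 were not matched. Floors of 3 counts cover counting error only. Sequences are from RefSeq on GRCm38.p6, and overlaps of exons from the GENCODE annotation of the same build, so no coordinates of the files' build are given.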

Additional observations from a re-analysis of the deposited data

Results flagged for a closer look

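Single libraries stood apart from the other 3 of their group, by a gap above Dixon's critical value, in 7 of 144 combinations of gene and group. Chance flags about 1 in 20, or 7.2 of 144. Eif2ak2 in FNC3 was at 20.8 CPM, against 17.6 to 18.1 in the other FNC libraries. Herc6 in FHF4 was at 64.7 CPM, against 38.3 to 39.1, and Herc6 in MNC2 at 24.4 CPM, against 18.2 to 18.5. Ifi27l2a in FHF1 was at 9.52 CPM, against 4.80 to 5.53. Parp14 in FHF4 was at 68.9 CPM, against 49.6 to 52.4. Samd9l in MNC4 was at 15.1 CPM, against 11.1 to 11.8. Usp18 in FNC4 was at 7.73 CPM, below the 10.6 to 11.04 of the others.

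The test of the interaction called Samd9l (log2 -0.90, a smaller female rise) and Irf1 (log2 1.49, a larger female rise). The Samd9l call was lost in 16 of 24 other settings and the Irf1 call in 0 of 24.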

How the results depend on the processing

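Apart from single library fits, the members called ranged from 24 to 35 in females and from 16 to 22 in males over 9 settings, and no estimate that was called changed sign in any setting. The members called in the interaction were 0 on log2(TPM + 1), 0 on log2(TPM + 0.1) and 0 with MHF2 and MHF3 averaged (12, 10 and 3 at an unadjusted p under 0.05), and pathway genes called in it were 2 with DESeq2. On the normal diet the sexes differed in 2 members on log2(TPM + 1) and in 10 when only the 2 groups compared were fitted (8 above and 2 below males). Between FHF and MHF 20 differed on log2(TPM + 1). The median of all genes shifted on the TPM scales, by 0.15 and 0.22 in females on diet and by 0.10 and 0.15 between FHF and MHF, so calls there are relative to a moved centre. Leaving out 1 library gave 20 to 32 members in females, 13 to 21 in males (13 without MNC3), 0 to 1 in the interaction, 1 to 7 between the sexes on the normal diet and 10 to 19 on the high fat diet. The pathway genes ranged from 39 (without FHF4) to 67 in females, from 18 to 35 in males and from 1 to 2 in the interaction. A fit with the replicate number as a block gave 29 and 22 members and 1 in the interaction. Same-numbered libraries of the diet groups correlated between -0.16 and 0.14. A pairing by number was thus not shown, though such a check cannot exclude a weak one. Depth limits the ligands and, among the members, Oas1g, Oas2 and Ifi27l2a, whose lowest counts in a library were 16, 20 and 28.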
